A study of Homo sapiens with 6 samples.

Results

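The sgRNA control state of A549 cells that carry NKX2-1 was described from 3 RNA-seq libraries, out of 6 libraries in the series. Its members were the gene symbols with at least 1 CPM in each of the 3 libraries, where CPM is the count of a gene after the counts assigned to genes in a library are scaled to a sum of 1000000. Of 26485 symbols listed, 13241 met this rule and are called expressed below. A549 is an established human lung adenocarcinoma cell line. The cells stably expressed dCas9-KRAB, a nuclease-dead Cas9 fused to a transcriptional repressor domain, under selection with 10 ug/ml puromycin, and rat Nkx2-1, which was introduced by a lentivirus with the PGK promoter and an IRES-EGFP reporter and selected by GFP sorting. The 3 control libraries received a non-targeted synthetic sgRNA by transient transfection, and the other 3 libraries of the series, which carried the same transgenes and a guide to SFTPB, were not used. The cells are a cell line with an ectopic factor under a constitutive promoter rather than lung tissue, and all libraries carried NKX2-1, so no level below can be assigned to NKX2-1 from them.

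NKX2-1, also known as TTF-1, is a homeodomain transcription factor of lung and thyroid development that activates surfactant protein genes in alveolar type 2 cells and serves as a marker of lung adenocarcinoma. NRF2, encoded by NFE2L2, is a transcription factor that KEAP1 targets for degradation. When NRF2 escapes this control it drives genes for glutathione and thioredoxin metabolism, iron storage, NADPH supply and the detoxification of carbonyls and drugs. Lung tumours that lose NKX2-1 are known for gut-like and liver-like gene programs under HNF4A, so the libraries were read against marker lists for lung, gut and liver, for metabolism and for tumour identity.

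Replicates 1, 2 and 3 of the sgRNA control held 6341459, 7068999 and 7584611 counts on genes. A level of 1 CPM therefore stood for 6.34, 7.07 and 7.58 counts. A symbol with no count in a library could have a level of up to 0.473, 0.424 and 0.396 CPM (3 counts), and this limit covers counting error only. No pair of libraries held the same counts: the mean chi-square per gene between 2 libraries, which is about 1 for sampling noise alone, lay between 3.09 and 3.61. Across the expressed genes, Pearson's r of log2 CPM between libraries lay between 0.990 and 0.991, where genes are not independent replicates. The common biological coefficient of variation (BCV, the spread between libraries beyond counting error, from edgeR) was 6.88%. The trended BCV, fitted along expression level, had a median of 10.9% for genes under 10 CPM, 7.33% between 10 and 100 CPM, and 6.29% from 100 CPM.

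The expressed genes included 12213 protein-coding genes and 456 long non-coding RNA genes. Another 7835 symbols had no count in any of the 3 libraries, and 5409 had counts but did not reach the threshold. The symbols listed include non-coding RNA and pseudogene symbols, and of 238 processed pseudogenes 68 were expressed. The 50.0% of all symbols used below as a background covers these classes, while the gene lists hold mostly protein-coding genes. A share over protein-coding symbols alone is not given here, so list shares near or above 50.0% are not read as enrichment. The median level of an expressed gene was 36.1 CPM. In all 3 libraries, 9922 genes reached 10 CPM, 2536 reached 100 CPM and 50 reached 1000 CPM. The counts were spread over many genes. The 10 most abundant took 2.52%, 2.70% and 2.52% of the counts of replicates 1, 2 and 3, and the 1385, 1396 and 1416 most abundant genes made up 50% of them. Just inside the threshold, FFAR4 had 10, 13 and 8 counts and EFNA2 9, 12 and 8 counts in replicates 1, 2 and 3. Just outside it, TRIM17 had 8, 7 and 9 counts and MEIOB 16, 7 and 13 counts. A few reads separated the genes on either side of the threshold.

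The genes with the most counts were, in order of mean CPM, ACTG1 (3018 ± 129.6, mean ± SD, n = 3 here and below), which encodes cytoplasmic actin, the fatty acid desaturase SCD (2868 ± 152), ALDH1A1 (2731 ± 69.9), IGFBP4 (2628 ± 178), FN1 (2586 ± 368), TXNRD1 (2501 ± 83.3) and ACTB (2489 ± 146). The next 8 were FLNA, AHNAK, the long non-coding RNA NEAT1, KRT81, FTL, CEACAM6, PLEC and NQO1, between 1971 and 2401 CPM. CPM does not correct for length, so levels of different genes were compared as CPM per kilobase of annotated exon (CPM per kb), which 12902 of the 13241 expressed genes had. The median of these was 6.84 CPM per kb, the upper quartile began at 16.5 and the top percentile at 150 CPM per kb. The choice of length matters: dividing by the longest transcript in place of the merged exons raised 4551 of the 12902 values by more than 1.5 times, and the median to 9.69 CPM per kb.

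Among protein-coding genes, the order at the top per kilobase was FTL, the light chain of the iron store ferritin (2395 ± 77.5 CPM per kb), IGFBP4, which binds insulin-like growth factors (1192 ± 80.5), the hair keratin KRT81 (1091 ± 129.6), the retinal dehydrogenase ALDH1A1 (962 ± 24.6) and the aldo-keto reductase AKR1B10 (889 ± 40.7). GAPDH, ACTG1, CEACAM6, TMSB10, NQO1, GPX2, PFN1 and FTH1 followed, from 763 down to 628 CPM per kb. With the longest transcripts FTH1 had 1046 CPM per kb, ACTG1 1212 and ALDH1A1 1303. ALDH1A1 and ACTG1 then stood above IGFBP4, KRT81 and AKR1B10, so the order given here is that of the merged exons. Of the first 15 genes by CPM per kb, 13 were also among the first 15 protein-coding genes. The other 2 were MIR3654 at 5070.4 CPM per kb, whose annotated length is 56 bases, every 50-base window of which is found in another gene, and LINC00674, whose annotated model is 160 bases long. Their per-kilobase values rest on these short models. Of the windows of KRT81 and FTH1, 44.6% and 80.5% also occur in other annotated genes, so part of their reads could belong to relatives.

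**Figure D1:**
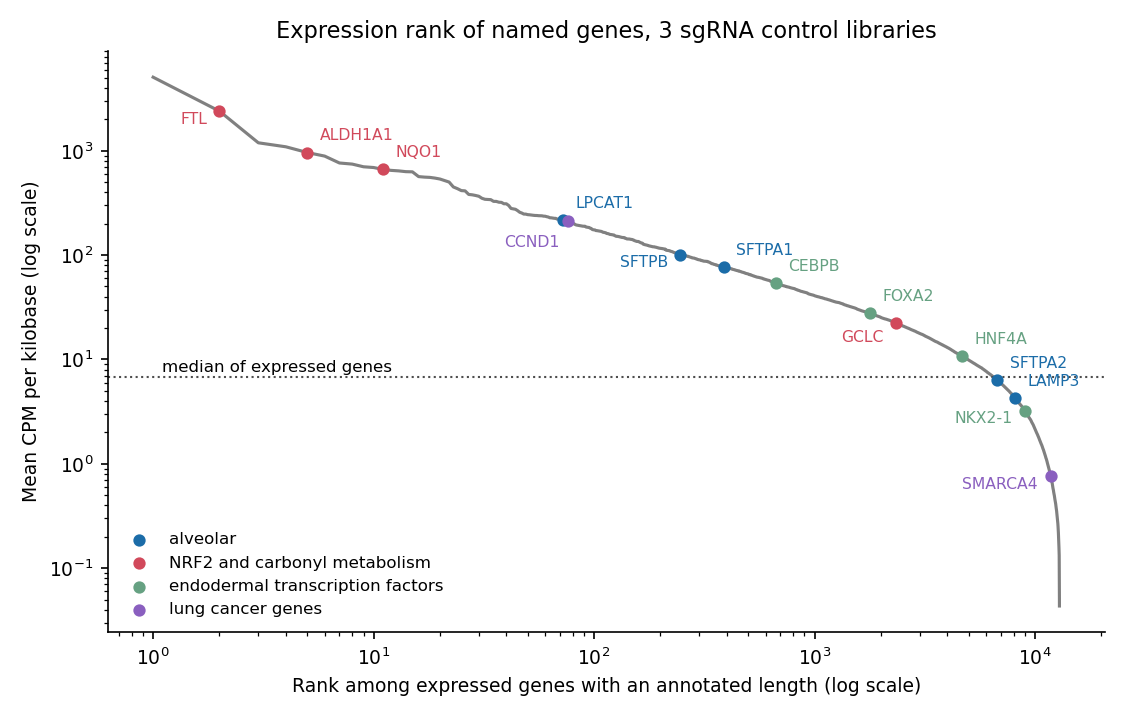
Mean CPM per kilobase over the 3 sgRNA control libraries (log scale) of the 12902 expressed genes with an annotated length, against their rank (log scale), with named genes in colour and the median of 6.84 CPM per kb dotted. FTL, ALDH1A1 and NQO1 lie within the first 11 ranks, and SFTPB and SFTPA1 at ranks 246 and 388. SMARCA4 and the human symbol NKX2-1, which does not measure the rat transgene, lie below the median.

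The libraries were first checked for NKX2-1 itself. The human symbol NKX2-1 (hg38 chr14:36516392-36521149, minus strand) had 59, 85 and 71 counts in replicates 1, 2 and 3, which is 10.2 ± 1.55 CPM and 3.23 ± 0.491 CPM per kb. All 3 libraries lay above the threshold and below the median of expressed genes per kilobase, with replicate 2 the highest. The rat transgene has no symbol of its own in the count files, so reads of rat Nkx2-1 that aligned to the human gene cannot be told apart in these files from reads of the human gene, and A549 is known as a line that does not express its own NKX2-1. In addition, 40.7% of the exon bases of NKX2-1 overlap the annotated exons of SFTA3, which was listed at 0 counts in every library. Rat Nkx2-1 reads that did not align to the human gene are not in these counts. The length used per kilobase is that of the human gene, so the level of the transgene is not measured here.

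The study selected 7 NKX2-1 downstream target genes, SFTPB, SFTPA1, SFTPA2, LAMP3, MYBPH, LMO3 and CD274, and all 7 were expressed in the control libraries, where the background is 50.0% of the symbols listed. They had been selected as NKX2-1 targets in this cell line, so the count is no independent evidence of NKX2-1 activity. Per kilobase they ran from 101 down to 0.776 CPM per kb, in the order SFTPB, SFTPA1, MYBPH, CD274, SFTPA2, LAMP3 and LMO3. The ranges of neighbours in this order were separate over the 3 libraries, apart from CD274 and SFTPA2, whose ranges overlapped.

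SFTPB (chr2:85657314-85668741, minus strand) encodes surfactant protein B, the hydrophobic protein that lowers surface tension in the alveolus and without which newborns cannot breathe. Its level was 423, 407 and 416 CPM in replicates 1, 2 and 3, or 101 ± 1.96 CPM per kb, which is 14.8 times the median of expressed genes. The 3 libraries differed little, with a coefficient of variation of 1.94%. SFTPA1 (chr10:79610939-79615455, plus strand) and SFTPA2 (chr10:79555852-79560407, minus strand) encode the closely related collagen-like surfactant proteins A1 and A2 of alveolar host defence, from divergent neighbouring genes. SFTPA1 had 183, 196 and 183 CPM and SFTPA2 had 14.7, 21.6 and 15.3 CPM. Per kilobase the SFTPA1 level was 12.3 ± 2.02 times that of SFTPA2, and SFTPA1 lay above SFTPA2 in every library. About 19% of the 50-base windows of each gene (19.2% and 19.3%) also occur in another gene, so some reads cannot be placed between them.

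LAMP3 (chr3:183122215-183163839, minus strand) encodes DC-LAMP, a glycoprotein of the lamellar bodies in which surfactant is stored, and had 14.0, 20.1 and 14.6 CPM. MYBPH (chr1:203167811-203175826, minus strand), a myosin-binding protein H that acts on actomyosin and restrains cell motility, had 36.3, 25.5 and 27.4 CPM. CD274 (chr9:5450503-5470566, plus strand), the immune checkpoint ligand PD-L1, had 36.7, 30.1 and 30.2 CPM. LMO3 (chr12:16548372-16610594, minus strand), a LIM-only transcriptional cofactor, was the lowest, with 54, 54 and 54 counts and 8.52, 7.64 and 7.12 CPM. Its value of 0.776 CPM per kb rests on the merged exon length of 10002 bases and would be 2.04 with the longest transcript of 3810 bases. Replicate 2 was the highest library for SFTPA1, SFTPA2 and LAMP3, while replicate 1 was the highest for SFTPB, MYBPH, CD274 and LMO3. Together the 7 genes took 0.0706% ± 0.00115 of the counts, of which SFTPB made up 58.8%.

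**Figure D2:**
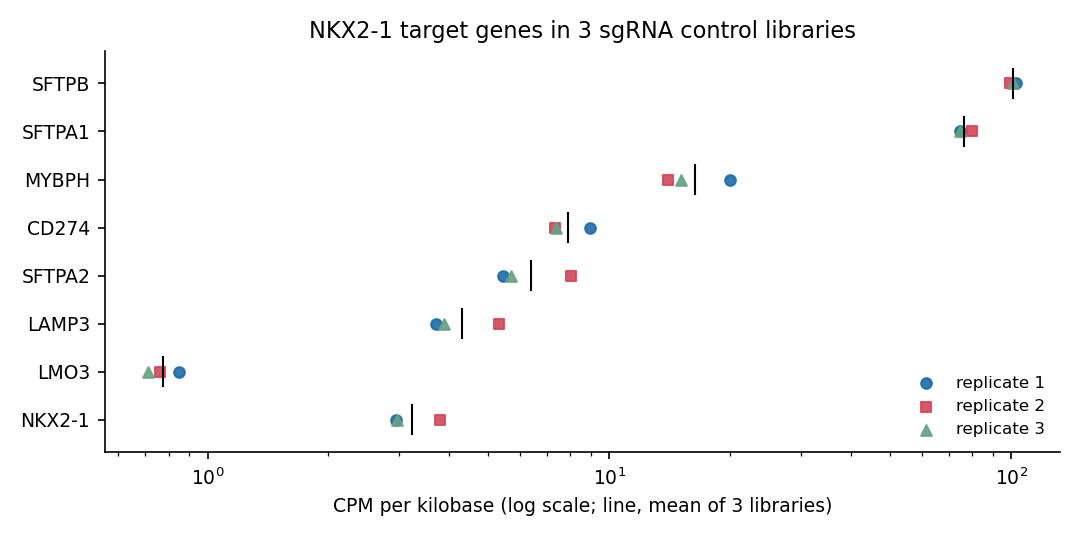
CPM per kilobase (log scale) of the 7 NKX2-1 target genes of the study and of the symbol NKX2-1 in each sgRNA control library (symbols) with the mean of the 3 libraries (line). SFTPB and SFTPA1 stand at 101 and 76.4 CPM per kb, far above SFTPA2 at 6.38 and LMO3 at 0.776.

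The 250 bases before a RefSeq start of 4 of these genes are shown because they hold the letters CAAG (CTTG on the other strand), the core of the motif that NKX2-1 recognises, and because SFTPA1 and SFTPA2 can be compared there. Each run is given on build GRCh38.p14, 5′ to 3′ on the strand of the gene, with every CAAG or CTTG in capitals. The SFTPB run is chr2:85668200-85668449 (minus strand), that of MYBPH chr1:203175827-203176076 (minus strand), that of SFTPA1 chr10:79610689-79610938 (plus strand) and that of SFTPA2 chr10:79560408-79560657 (minus strand). RefSeq has more than 1 start for SFTPB, and the one used here lies inside the GENCODE span of the gene given above.
SFTPB: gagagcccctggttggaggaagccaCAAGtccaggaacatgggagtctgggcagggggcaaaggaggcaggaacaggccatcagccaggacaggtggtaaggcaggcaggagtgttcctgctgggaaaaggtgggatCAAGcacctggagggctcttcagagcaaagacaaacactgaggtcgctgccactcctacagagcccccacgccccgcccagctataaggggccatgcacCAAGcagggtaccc
MYBPH: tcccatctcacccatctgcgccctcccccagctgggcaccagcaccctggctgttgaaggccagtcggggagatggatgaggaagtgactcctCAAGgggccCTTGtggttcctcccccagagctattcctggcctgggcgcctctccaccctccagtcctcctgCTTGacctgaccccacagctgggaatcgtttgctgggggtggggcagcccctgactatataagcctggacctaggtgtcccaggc
SFTPA1: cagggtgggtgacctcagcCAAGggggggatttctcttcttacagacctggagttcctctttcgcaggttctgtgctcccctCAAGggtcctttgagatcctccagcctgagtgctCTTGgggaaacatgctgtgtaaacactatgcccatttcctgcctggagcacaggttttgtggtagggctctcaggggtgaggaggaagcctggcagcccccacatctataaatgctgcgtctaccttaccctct
SFTPA2: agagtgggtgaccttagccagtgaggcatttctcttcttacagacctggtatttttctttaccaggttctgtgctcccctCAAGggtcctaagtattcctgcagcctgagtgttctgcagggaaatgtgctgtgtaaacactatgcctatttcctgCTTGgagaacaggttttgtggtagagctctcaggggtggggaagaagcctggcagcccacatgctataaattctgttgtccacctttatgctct
SFTPB, MYBPH and SFTPA1 had 3 matches each and SFTPA2 had 2. In SFTPB they began 225, 113 and 14 bases before the start. A global alignment of the SFTPA1 and SFTPA2 runs had 213 identical positions, 33 mismatches and 8 gap positions, an identity of 83.9%. SFTPA1 carries a CAAG that begins 231 bases before the start and a CTTG at 134 bases, and SFTPA2 a CTTG at 94 bases, while both carry a CAAG near 170 bases. All 6 target genes with a promoter in the table (LAMP3 has no entry) held at least 1 match at 1 or more of their RefSeq starts. A core of 4 letters is common, and 84.2% of the 27305 symbols with a promoter had one, so these matches describe the sequence and do not mark sites.

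Alveolar type 2 cells make and recycle surfactant. Of 20 markers on this list, 13 were expressed, against a background of 50.0% of all symbols, non-coding ones included. The median of the 13 was 11.0 CPM per kb. The most abundant was LPCAT1, which makes the dipalmitoyl lipid of surfactant and is also used by other cells, at 1418, 1328 and 1454 CPM and 216 ± 10.0 CPM per kb. It took 55.2% of the counts of the list. After SFTPB and SFTPA1 came DMBT1, a scavenger receptor of mucosal secretions (184 ± 28 CPM), the transcription factor CEBPA (50.8 ± 4.20 CPM) and ABCA3, the lipid pump of lamellar bodies (137 ± 12.2 CPM). Per kilobase the ranges of neighbours among these 3 overlapped, at 19.6, 19.5 and 17.6 CPM per kb. The aspartic protease NAPSA, which processes surfactant protein B, had 39.2 ± 5.69 CPM and 10.9 CPM per kb, the transcription factor ETV5 11.0 CPM per kb, and the protease CTSH 0.351 CPM per kb (0.670 with its longest transcript). The other 7 markers did not pass the threshold. SFTPC, which encodes the surfactant protein most particular to this cell type, had 5, 3 and 2 counts, the phosphate transporter SLC34A2 2, 0 and 0 counts and SFTA2 0, 1 and 3 counts in replicates 1, 2 and 3. PGC, SFTA3 and PLA2G1B had no count in any library. Exons of SFTA3 overlap those of NKX2-1, so its reads there could have been left out as ambiguous, and its lack of counts is uncertain. SFTPD was seen with a mean of 1.36 CPM but not above the threshold in every library. The alveolar type 2 list was thus expressed in part, with SFTPB, ABCA3 and NAPSA present and SFTPC at a few counts.

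Alveolar type 1 cells are the thin gas exchange cells. Of their 12 markers, 9 were expressed, against 50.0% of all symbols, and CAV1, the main protein of caveolae, took 65.2% of the counts of the list at 1039, 867 and 887 CPM. CAV2 (210.2 ± 15.6 CPM) and the tetraspan protein EMP2 (219 ± 4.98 CPM) were also above 100 CPM in all 3 libraries. These genes are expressed in many cell types. AGER, the receptor that marks the cell in the lung, was low at 5.45 ± 1.19 CPM, HOPX was at 16.2 ± 2.62 CPM, and PDPN and CLIC5 had no count in any library. The median of the 9 was 2.22 CPM per kb, below the 6.84 of all expressed genes.

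The airway lists were expressed for a share of members below or near the 50.0% of all symbols, at 35.7% for airway secretory, 40.0% for ciliated, 45.5% for basal and squamous and 33.3% for neuroendocrine markers. Of 14 airway secretory markers, 5 were expressed, and CEACAM6, an adhesion glycoprotein of the carcinoembryonic antigen family, took 95.9% of the counts of the list with 2088, 2145 and 1993 CPM. The gel-forming mucins MUC5B and MUC5AC had 39.4, 86.2 and 56.8 CPM and 8.52, 21.2 and 15.4 CPM, with replicate 2 the highest for both. The club cell genes SCGB3A2 and SCGB3A1, together with TFF3 and BPIFA1, had no count in any library, and SCGB1A1 had 1 count in replicate 2 alone. Of 10 ciliated markers 4 were expressed, led per kilobase by CAPS at 4.54 ± 1.21 CPM, while the ciliary master regulator FOXJ1 had 1, 1 and 0 counts and DNAI1 and TEKT1 had none. Of 11 basal and squamous markers 5 were expressed. TP63, the basal cell regulator, had 31.7, 25.3 and 28.9 CPM, but KRT14, KRT17 and PKP1 had no count and KRT5 only 5, 6 and 4 counts. Of 9 neuroendocrine markers 3 were expressed, with CHGB at 12.7 ± 3.68 CPM and no count of INSM1, NEUROD1 or GRP. No expressed member of the ciliated, basal or neuroendocrine lists lay above the median of all expressed genes per kilobase.

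Endoderm is the germ layer of lung, liver and gut. Of 23 of its transcription factors on the list, 17 passed the threshold (73.9%, against 50.0% of all symbols), and 10 of the 17 lay above the median per kilobase. The highest were CEBPB (53.8 ± 5.45 CPM per kb), KLF5 (32.1 ± 2.47), FOXA2 (27.6 ± 1.75), ELF3 (26.1 ± 2.06), CEBPA (19.5 ± 1.61) and EHF (16.3 ± 1.42). The forkhead factors FOXA2 and FOXA1 act alongside NKX2-1 in lung epithelium, and the FOXA1 level was 13.6 ± 0.408 CPM per kb. The liver and gut factor HNF4A was present beside them. HNF4A had 106, 111 and 111 CPM, or 10.7 ± 0.309 CPM per kb, and 23.1 with its longest transcript, above CEBPA and EHF on that length. Per kilobase, the human symbol NKX2-1 with 3.23 stood below HNF4A in every library. This value does not measure the rat transgene, for the reasons given above. The intestinal regulators CDX1 and CDX2 were absent or nearly so (0, 0 and 0 and 0, 1 and 0 counts), PDX1 had 0, 1 and 1 counts, and the epithelial factor GRHL2 had none.

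Gut genes other than these factors were few. Of 20 intestinal markers, 7 were expressed (35.0%, against 50.0% of all symbols), with a summed level of 152 ± 33.0 CPM. MUC13, a transmembrane mucin, had 34.9, 53.3 and 48.0 CPM, the mucin-folding isomerase AGR2 28.4, 40.0 and 39.8 CPM, and CEACAM5, the carcinoembryonic antigen, 23.0, 48.7 and 31.2 CPM. The cadherin CDH17 and the tetraspanin TSPAN8 had 14.7 ± 2.48 and 6.79 ± 1.31 CPM. All 5 were lowest in replicate 1. Of the brush border genes, ANPEP had 10.3 ± 1.40 CPM and VIL1 2.51 ± 1.14 CPM, and 44.2% of the exon bases of VIL1 overlap another gene. FABP2, PHGR1, REG4, SI and GUCY2C had no count, and MUC2, KRT20 and FABP1 had at most 2 counts in a library. Of 12 gastric markers 3 were expressed, against the same 50.0% of all symbols. They were ANXA10, an annexin (30.6, 31.4 and 38.6 CPM), MUC5AC, and VSIG1, an immunoglobulin-like adhesion protein (2.03 ± 0.501 CPM). TFF1, MUC6, TFF2, GKN1 and PGC had no count.

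Liver genes reached 10 of 19, close to the 50.0% of all symbols. Per kilobase the list was led by CPS1, the mitochondrial enzyme that starts the urea cycle, at 518, 547 and 614 CPM and 50.8 ± 4.46 CPM per kb (96.9 with its longest transcript). CPS1 took 75.2% of the counts of the list. The fibrinogen chains FGA, FGB and FGG, which form the clotting protein secreted by hepatocytes, were expressed together. FGA had 40.1, 59.6 and 48.8 CPM, FGB 35.2, 59.3 and 48.0 CPM and FGG 25.2, 53.5 and 42.2 CPM. All 3 chains were lowest in replicate 1 and highest in replicate 2, and their ranges per kilobase overlapped. The remaining expressed members lay at or below 16.5 CPM (FGL1). Albumin, the defining hepatocyte product, had 1, 3 and 2 counts, APOB 1, 0 and 0 counts and TTR 1, 1 and 2 counts. Among the low expressed members were the plasma proteins APOH (6.05 ± 1.19 CPM), AMBP (6.97 ± 1.05) and SERPINA1 (4.63 ± 0.937).

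**Figure D3:**
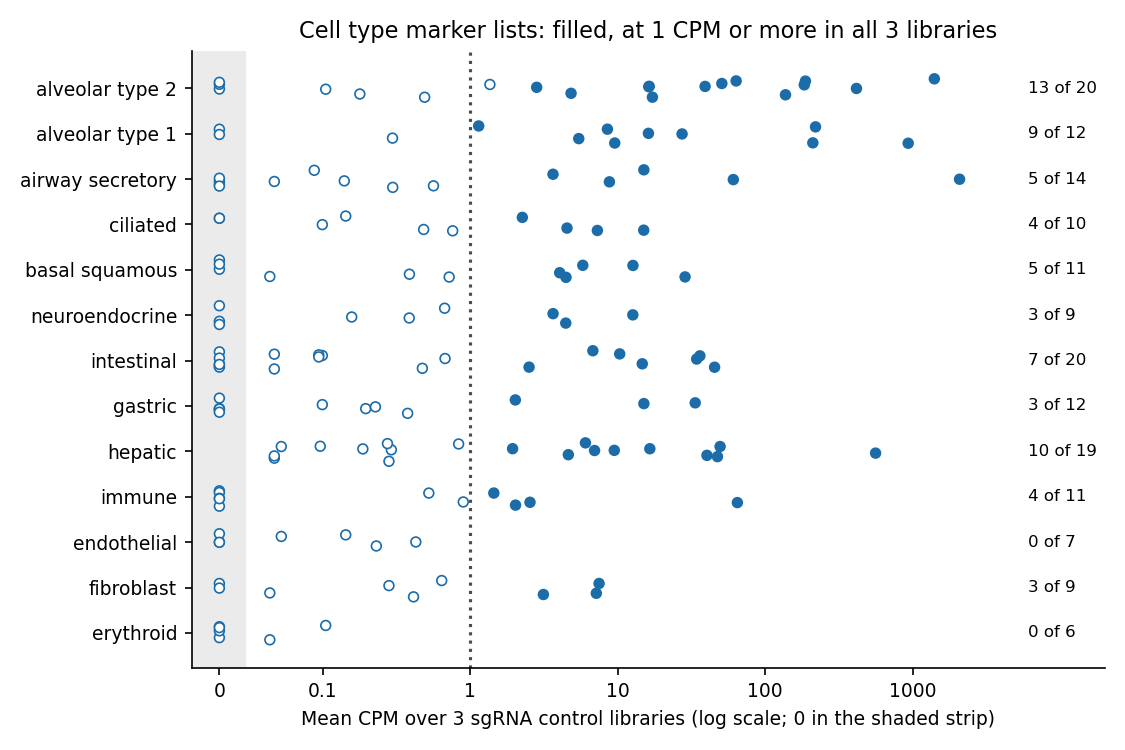
Mean CPM over the 3 sgRNA control libraries (log scale, genes without a count in the shaded strip) for each member of 13 cell type marker lists, filled where all 3 libraries reached 1 CPM, with the number expressed on the right. The alveolar type 2 list has 13 of 20 members expressed and the intestinal list 7 of 20, while no endothelial or erythroid marker is expressed.

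None of 7 endothelial and none of 6 erythroid markers was expressed, and the summed levels of these lists were 0.857 ± 0.116 and 0.149 ± 0.158 CPM. Of 9 fibroblast markers, 3 were expressed (33.3%, against 50.0% of all symbols), led by ACTA2 at 7.49 ± 1.75 CPM and COL1A1 at 7.17 ± 1.46 CPM, while DCN and COL1A2 had no count. Of 11 immune markers 4 were expressed (36.4%, also below the 50.0% of all symbols), with a summed level of 72.2 CPM. At a threshold of 2 CPM the count was 1, CD68, since CD14 (1.89, 3.11 and 2.64 CPM), CD8A (1.73, 1.56 and 1.05) and ITGAM (1.26, 3.25 and 1.58) each had a library below it. CD68, a lysosomal glycoprotein that is not restricted to macrophages, took 89.7% of the counts of the list at 64.8 ± 2.28 CPM, and 97.2% of its windows occur in another gene model. The leukocyte marker PTPRC and the lymphocyte markers CD3E and MS4A1 had no count.

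The NRF2 list took the largest share of the counts among the 28 lists described. It was also the longest of them, with 30 genes, and a share is a sum over members, so this order depends in part on list size. All 30 target genes on the list were expressed, against 50.0% of all symbols, and all 30 lay above the median of expressed genes per kilobase, or 29 with the longest transcripts, where CYP4F11 fell below it. Their median was 101 CPM per kb, beside 6.84 for all expressed genes. The lists were chosen with earlier results of these data known, so these counts are no independent evidence of NRF2 activity. The list took 1.99%, 2.06% and 2.07% of the counts of replicates 1, 2 and 3, a mean of 2.04%, and 3.66% when counts were first divided by gene length. FTL and FTH1, the ferritin chains, stood at 2086 ± 67.5 and 1258 ± 65.1 CPM. AKR1B10, which reduces retinal and lipid aldehydes, had 1496, 1637 and 1593 CPM. NQO1, the quinone reductase often used as a readout of NRF2, had 1948, 1943 and 2020.1 CPM, and per kilobase its level was 6.56 ± 0.178 times that of SFTPB. The glutathione peroxidase GPX2 had 802, 953 and 852 CPM and the thioredoxin reductase TXNRD1 2596, 2442 and 2465 CPM. These libraries agreed to within a few per cent for NQO1 and TXNRD1, and GPX2 was highest in replicate 2. The lowest members were PIR and CYP4F11, at 8.01 ± 0.817 and 7.29 ± 1.11 CPM per kb (13.1 for PIR with its longest transcript). In the order of the list, 18 of 29 pairs of neighbours had ranges that overlapped over the 3 libraries, so most adjacent members are not separated.

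**Figure D4:**
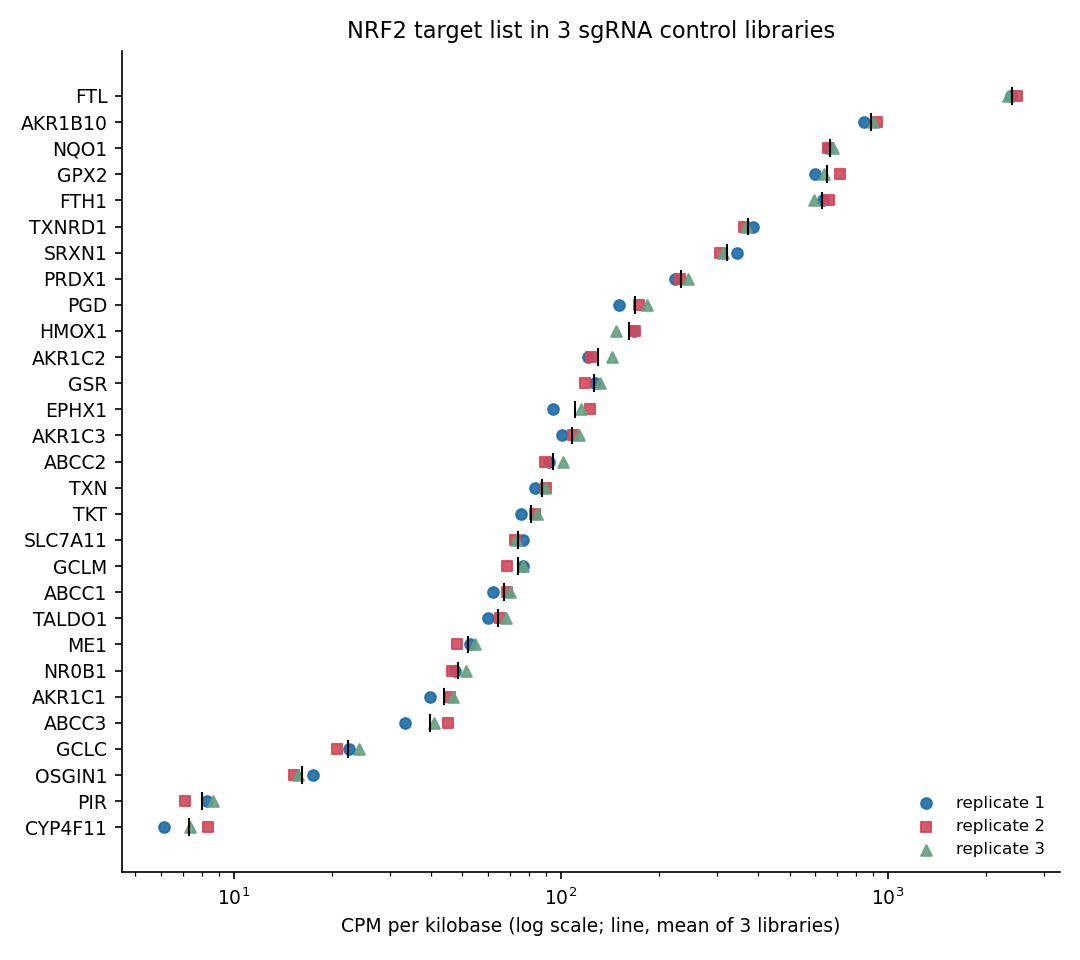
CPM per kilobase (log scale) of 29 of the 30 NRF2 target genes in each sgRNA control library (symbols) with the mean of the 3 libraries (line). The means run from 2395 for FTL to 7.29 for CYP4F11, and all lie above the median of 6.84 for expressed genes.

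The DNA before the start of GPX2, TXNRD1 and GCLM is shown because it holds the core of the antioxidant response element, to which NRF2 binds with small MAF proteins. The core was searched as TGACNNNGC on both strands (GCNNNGTCA on the reverse), and matches are in capitals. For these genes only RefSeq starts with a match in the window were considered, so the starts and positions shown are selected. The runs are the 250 bases before a RefSeq start of the gene, GRCh38.p14, 5′ to 3′ on the strand of the gene, at chr14:64942746-64942995 (minus strand) for GPX2, chr12:104286782-104287031 (plus strand) for TXNRD1 and chr1:93909431-93909680 (minus strand) for GCLM, the modifier subunit of the enzyme that starts glutathione synthesis.
GPX2: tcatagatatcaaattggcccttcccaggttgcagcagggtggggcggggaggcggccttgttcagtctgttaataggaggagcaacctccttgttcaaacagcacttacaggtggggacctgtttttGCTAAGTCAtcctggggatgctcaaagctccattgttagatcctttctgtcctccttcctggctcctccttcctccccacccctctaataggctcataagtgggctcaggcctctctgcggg
TXNRD1: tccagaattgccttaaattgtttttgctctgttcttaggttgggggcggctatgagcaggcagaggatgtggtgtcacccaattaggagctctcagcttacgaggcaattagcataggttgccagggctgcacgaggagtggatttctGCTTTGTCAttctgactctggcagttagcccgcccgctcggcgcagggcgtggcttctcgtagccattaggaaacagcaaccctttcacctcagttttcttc
GCLM: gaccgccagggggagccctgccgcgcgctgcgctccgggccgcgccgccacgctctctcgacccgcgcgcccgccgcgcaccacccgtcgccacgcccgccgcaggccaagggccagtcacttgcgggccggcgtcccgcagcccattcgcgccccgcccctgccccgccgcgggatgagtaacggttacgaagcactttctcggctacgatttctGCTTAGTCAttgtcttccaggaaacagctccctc
The match began 122 bases before the start in GPX2, 102 in TXNRD1 and 34 in GCLM, and each lay on the reverse strand. Of the 21 list members with a promoter in the table, 7 had a match in this window at any of their RefSeq starts. The shares that follow were counted in the same way. The share was 13.2% over all 27305 symbols with a promoter and 16.1% over the 9857 expressed genes among them. NQO1 had none in the window, which says only that these letters do not occur there.

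Enzymes that handle carbonyls and foreign compounds overlapped with the NRF2 list and were expressed for 18 of 20 members, against 50.0% of all symbols, with a median of 104 CPM per kb. ALDH1A1, which oxidises retinal, led with 2685, 2696 and 2811 CPM. The aldose reductase AKR1B1 (1194 ± 39.6 CPM), the vitamin D hydroxylase CYP24A1 (801 ± 106), the UDP-glucose dehydrogenase UGDH (744 ± 52.2) and the glutathione transferase GSTP1 (267 ± 8.89) followed per kilobase after AKR1B10. The steroid-reducing enzymes AKR1C1, AKR1C2 and AKR1C3 had 386 ± 33.5, 788 ± 74.2 and 422 ± 25.8 CPM. They are closely related copies, with 22.7%, 47.3% and 18.6% of their windows found in another gene, so the division between them is uncertain. The cytochrome CYP1A1, an aryl hydrocarbon receptor target, had only 6, 2 and 1 counts and the carboxylesterase CES1 1, 2 and 1.

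All 21 glycolysis and lactate genes passed the threshold, against 50.0% of all symbols, 18 of them above the median per kilobase, and the list took 1.17% ± 0.0267 of the counts. GAPDH (763 ± 10.4 CPM per kb), ENO1 (327 ± 12.1), LDHA (244 ± 10.3), ALDOA (239.5 ± 7.24), PKM (228 ± 6.81) and TPI1 (211 ± 5.07) were the highest, and LDHA, which forms lactate, stood above its isoenzyme partner LDHB (136 ± 3.58). With the longest transcripts ENO1, LDHA and PKM had 670.0, 656 and 647 CPM per kb, ALDOA 362, TPI1 324 and LDHB 264. GAPDH, ALDOA and LDHB share 46.4%, 89.5% and 73.1% of their windows with other genes. All 7 pentose phosphate genes were expressed, against the same 50.0%, and above the median, and no 2 neighbours in their order overlapped. PGD, which makes NADPH, had 502, 576 and 612 CPM and the transketolase TKT 718, 794 and 803 CPM. PGD, TKT and TALDO1 were lowest in replicate 1. These 3 are also on the NRF2 list.

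All 17 genes of lipid and cholesterol synthesis were expressed, against 50.0% of all symbols, and above the median per kilobase. SCD, the desaturase that makes oleate, was the most abundant, with 2793, 2767 and 3043 CPM, 34.7% of the counts of the list. Below it per kilobase were, among others, ACLY (787 ± 12.8 CPM), which supplies cytosolic acetyl-CoA, the desaturases FADS1 (922 ± 72.9) and FADS2 (658 ± 22.9) and SREBF1, the regulator of this pathway (420.0 ± 27.6). All 15 genes of amino acid and nitrogen metabolism were expressed, against the same 50.0%, 13 of them above the median. The large neutral amino acid transporter SLC7A5 had 1689, 1779 and 1538 CPM, its partner SLC3A2 513, 545 and 504 CPM and the glutamine transporter SLC1A5 451, 514 and 434 CPM. All 3 were highest in replicate 2.

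Epithelial and mesenchymal genes were expressed side by side. Of 16 epithelial genes, 11 passed the threshold (68.8%, against 50.0% of all symbols), with the simple epithelial keratins KRT7 (1363, 1589 and 1157 CPM), KRT8 (1619, 2060.3 and 1631 CPM) and KRT18 (505, 639 and 548 CPM) at the top per kilobase. All 3 were highest in replicate 2. E-cadherin, CDH1, had 238 ± 17.4 CPM, desmoplakin, DSP, 435 ± 17.6 CPM and the tight junction protein TJP1 349 ± 10.2 CPM. The adhesion molecule EPCAM was low, at 6.94, 8.20 and 10.0 CPM, KRT19 had 1, 4 and 2 counts, the splicing factor ESRP1 3, 6 and 2 counts, and RAB25 none. Shared windows were 39.2% for KRT8 and 52.8% for KRT18, but 1.79% for KRT19. All 14 mesenchymal genes were expressed, against the same 50.0%, although 6 of the 14 lay above the median per kilobase. TGFBI (1830.2, 1759 and 1771 CPM), fibronectin FN1 (2235, 2968 and 2553 CPM) and vimentin VIM (441, 418 and 423 CPM) were among the highest. FN1 was highest in replicate 2 and spread more between the libraries than VIM or TGFBI. N-cadherin, CDH2, had 131 ± 10.1 CPM, so both cadherins were present, at 39.1 ± 2.86 CPM per kb for CDH1 and 15.3 ± 1.18 for CDH2. With the longest transcripts these were 49.4 and 32.7, which brings the ratio of CDH1 to CDH2 from 2.56 to 1.51.

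Tumour genes were read as levels only, since counts show neither mutations nor gene copies. A549 is known as a line with mutated KEAP1, STK11 and SMARCA4 and a deletion of CDKN2A. All 18 lung cancer genes on the list were expressed, against 50.0% of all symbols. Cyclin D1, CCND1, led with 1107, 1039 and 866 CPM, followed per kilobase by the cell cycle inhibitor CDKN1A (291, 379 and 244 CPM), MYC (358, 322 and 327 CPM), the receptor MET (349.8, 351 and 301 CPM), KEAP1 (145, 147 and 149 CPM) and the ubiquitin ligase MDM2 (292, 280.4 and 244 CPM). CDKN1A had the largest coefficient of variation of the list (22.4%), with replicate 2 the highest and replicate 3 the lowest. NFE2L2 had 200.1 ± 7.44 CPM and the kinase STK11 74.7, 81.9 and 75.3 CPM. The chromatin remodeller SMARCA4 was the lowest of the list per kilobase at 0.762 ± 0.0860 CPM per kb, beside 3.62 ± 0.189 for its paralogue SMARCA2, with separate ranges. Both were raised by the longest transcript, to 2.06 and 9.77, and SMARCA4 stayed the lowest. All 20 proliferation genes were expressed, against the same 50.0%, 19 of them above the median per kilobase. TOP2A, which untangles DNA, had 556 ± 31.0 CPM, MKI67 962 ± 16.1 CPM, the replication clamp PCNA 119 ± 11.2 CPM and cyclin B1, CCNB1, 190.4 ± 7.89 CPM.

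On 9p21, the locus of the cell cycle inhibitors p16 and p15, CDKN2A, CDKN2B and the antisense transcript CDKN2B-AS1 had no count in any of the 3 libraries. Of 47 symbols within 4 Mb of the 5′ end of CDKN2A, 14 were expressed, below the 50.0% of all symbols. The 47 include 14 interferon alpha symbols, none of them expressed, and several microRNA symbols. The share thus depends on which genes lie there and is not read as a trait of the locus. MTAP, the neighbouring gene of methionine salvage, had 8.36, 7.21 and 7.38 CPM, which is 0.527 ± 0.0425 CPM per kb (1.01 with its longest transcript) and rank 12165 among 12902 genes. Farther out on the same side, KLHL9, a ubiquitin ligase adaptor, had 214, 213 and 207 CPM and the host transcript of miR-31, MIR31HG, 46.4, 54.6 and 49.6 CPM. IFNE, an epithelial interferon, had 6.62, 6.79 and 8.57 CPM, while IFNB1 and all 14 interferon alpha symbols were not expressed. On the far side, DMRTA1 had 15.8, 14.9 and 12.9 CPM, and no other protein-coding gene of the window on that side was expressed. CDKN2A, CDKN2B and CDKN2B-AS1 lie between MTAP and DMRTA1, which both had counts in every library.

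**Figure D5:**
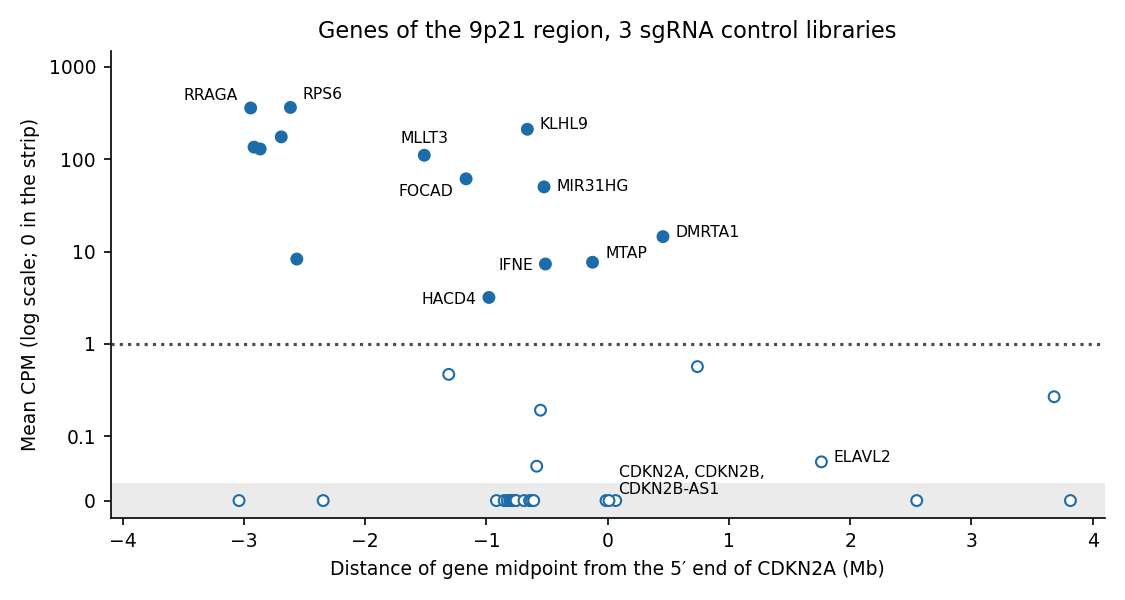
Mean CPM over the 3 sgRNA control libraries (log scale, genes without a count in the shaded strip) of protein-coding and long non-coding genes by the distance of their midpoint from the 5′ end of CDKN2A, filled where expressed. CDKN2A, CDKN2B and CDKN2B-AS1 have no count, between MTAP at 7.65 CPM and DMRTA1 at 14.5 CPM.

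Of 17 cancer testis antigens, genes normally restricted to germ cells, PRAME alone was expressed, at 122, 140.3 and 128 CPM, against 50.0% of all symbols. MAGEA1, MAGEB2, MAGEC2 and MAGEC1 had no count. XAGE1B and CTAG1B were also listed at 0, but every 50-base window of each occurs in another gene, so reads cannot be placed between the copies. Of 10 surface tumour markers 6 were expressed, near the 50.0% of all symbols, and CEACAM6, CD44 (790.2, 746 and 818 CPM) and ALCAM (337, 341 and 385 CPM) were above 100 CPM in all 3 libraries. MUC1 was at 18.0, 13.3 and 17.8 CPM and L1CAM at 8.99, 10.8 and 9.10 CPM. PROM1, MSLN and MUC16 were under 1 CPM in every library. Of the carcinoembryonic antigens, CEACAM6 was 89.2 ± 31.5 times CEACAM5 per kilobase, and the spread of this ratio came with CEACAM5, which ranged from 23.0 to 48.7 CPM.

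A small set of genes differed between the libraries far more than the rest. Of the 10221 expressed genes with a mean of at least 10 CPM, the median coefficient of variation was 7.0%, and 103 reached 25%. The most variable was FCGBP, a mucus-associated IgG-binding protein, with 8.67, 36.2 and 14.4 CPM (coefficient of variation 73.6%). It was followed by the cytokine TNFSF15 (15.8, 22.1 and 8.44 CPM), the receptor LGR6 (6.47, 16.0 and 11.2 CPM), MUC5AC, filaggrin FLG (16.4, 27.4 and 12.3 CPM), the calcitonin gene-related peptide CALCB (46.0, 41.0 and 19.8 CPM), MUC5B and the tensin TNS1 (17.5, 37.2 and 23.9 CPM). All but CALCB were highest in replicate 2. Of the 103 variable genes 60 were highest in replicate 2, which is 58.3%, beside 33.8% of all 10221, and 50 were lowest in replicate 1, beside 3739 of all 10221. MUC5AC and MUC5B, on the airway and gastric lists, and CEACAM5 and the fibrinogen chains, on the intestinal and liver lists, were also highest in replicate 2 and lowest in replicate 1. The part of these libraries in those levels was not tested.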

How the data were processed

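RNA of A549 cells was sequenced in 6 libraries, and the 3 sgRNA control libraries were used here. The deposited files hold whole-number read counts per gene symbol that the authors made with htseq-count. The submitters' processing notes also name Trim Galore, FastQC, Bowtie2 2.3.3.1, SAMtools, Picard and the hg38 build, without roles or settings. The annotation and strand setting are not given in the sources used here, so reads of a gene and of its antisense partner cannot be told apart. The study describes biological triplicates, and the libraries were grouped by their titles.

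The files' summary rows were left out. Reads in no annotated gene were 20.4%, 19.7% and 19.8% of the reads in replicates 1, 2 and 3, and ambiguous reads 2.64%, 2.68% and 2.62%. The rows for unaligned and multiply aligned reads were at 0. Depth was 6341459 to 7584611 counts on genes, with a floor of 3 counts. Counts were scaled to CPM, and expressed genes had at least 1 CPM in all 3 libraries. Of the symbols, 24314 were matched to GENCODE 44 on hg38 (1361 by a RefSeq synonym), and CPM was divided by the summed length of their merged exons. Shared sequence is the share of 50-base windows of a transcript that also occur in a transcript of another gene. Promoters came from RefSeq (GRCh38.p14). The BCV came from edgeR 4.0.16 with TMM factors, and its script was tested on simulated data made with a BCV of 10%, where it returned 10.0%.

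No groups were compared and no test was run. With 3 libraries a sign-flip test of 2 genes cannot go below a two-sided p of 0.25, so ranges over the libraries were compared. The 28 gene lists (378 genes) and the members were chosen with earlier results of these data known. Named genes were the 7 target genes and NKX2-1, the 15 highest by CPM and by CPM per kb, up to 6 expressed and 6 unexpressed members of each list, the 8 most variable genes of at least 10 CPM and 2 genes on each side of the threshold. KLHL9, MIR31HG, FOXA1, HNF4A, NFE2L2, STK11, SMARCA2, SMARCA4, SFTPD, HOPX, GCLM, PIR, CYP4F11, LDHB, the AKR1C genes and other list members outside this rule, and the pseudogenes in the closing section, were chosen after their values were seen. Alternatives were other thresholds, scalings and lengths and leaving out each library. Some list members count in the totals of their lists but are not reported here.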

Additional observations from a re-analysis of the deposited data

How the results depend on the processing

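The count of expressed genes, 13241, lay between 12378 (2 CPM) and 18650 (at least 1 count in any library) under the 11 alternatives, all within 1.5 times. The counts of list members stayed within 1.5 times under 195 of 196 alternatives, the exception being the immune list, which fell to 1 member at 2 CPM. CPM levels moved by less than the spread between the libraries under TMM and RLE for all 12 genes tried. Dividing by the longest transcript instead of the merged exons raised the CPM per kb of SFTPB to 113 and of NQO1 to 779.8, and it raised LMO3 from 0.776 to 2.04, which stayed the lowest of the 7 target genes. Of the 12902 genes, 35.3% moved by more than 1.5 times on this length, among them HNF4A, CPS1, ENO1, LDHA, PKM, CDH2, SMARCA2 and SMARCA4. As a share of counts per kilobase, the NRF2 list took 3.66% in place of 2.04% and the alveolar type 2 list 0.225% in place of 0.254%. The common BCV ranged from 6.34% to 7.46% when each replicate was left out. Of the first 15 genes by CPM per kb, 12 were also first with the longest transcript, and 13 when only protein-coding genes were ranked, a setting chosen after seeing the data. No paired analysis was possible because only 1 group of libraries was described. Depth limits the low members: in the shallowest library 1 CPM is 6.34 counts.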

Other observations

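Ribosomal protein genes took a small part of the counts. The 83 RPL and RPS symbols, of which 81 were expressed, held 0.760%, 0.763% and 0.819% of the counts of replicates 1, 2 and 3, with a median of 59.6 CPM. In counts not corrected for length, this is less than the share of the 30 NRF2 target genes, which was 1.99%, 2.06% and 2.07%. A share corrected for length is not given for the ribosomal protein genes, so the 2 sets are not ranked on that scale. Of the 50-base windows of a ribosomal protein gene, a median of 28.7% also occur in another gene. Per kilobase, the median of the expressed members was 23.3 CPM per kb, beside 6.84 for all expressed genes.

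The pseudogenes PDIA3P1 and ANXA2P2 were listed with higher CPM per kb than their parent genes in every library, by 16.8 ± 0.683 and 10.5 ± 0.311 times (mean ± SD, n = 3). With the longest transcripts in place of the merged exons these ratios were 7.95 and 3.20. PDIA3P1 had 599, 551 and 553 CPM, beside 122, 114 and 122 CPM for PDIA3, a protein disulfide isomerase of the endoplasmic reticulum. ANXA2P2 had 516, 503 and 515 CPM, beside 539, 557 and 561 CPM for annexin A2. Of the windows of PDIA3P1 and ANXA2P2, 44.5% and 59.4% occur in another gene. Of 238 processed pseudogene symbols 68 were expressed, and together they took 0.285%, 0.277% and 0.273% of the counts. The part of multiply placed reads in these levels was not tested.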
